A study of Mus musculus with 8 samples.

Results

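Chromatin accessibility was described at the loci of 7 chemokine receptor genes on mouse chromosome 9, namely Ccr1, Ccr1l1, Ccr2, Ccr3, Ccrl2, Cx3cr1 and Xcr1. A region counted as belonging to a locus when the nearest protein-coding gene span, within 100 kb, was that of one of these genes. This gave 38 regions out of 68800 in the series. The 7 loci were chosen on the calls of the Dox course, open or not at day 0, 4, 8 and 12, so these calls are given as a description and no test was made on them.

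AML246 is a mouse acute myeloid leukaemia line, here grown with the cytokine IL-3 in every group. Doxycycline (Dox, 0.1 µg/mL) was given from day 0 to day 12 and then withdrawn, and the labels call the first phase restoration and the second knockdown of PU.1. ATAC-seq, in which a transposase cuts open DNA, was run on total viable cells at day 0 (untreated), 4, 8 and 12 of Dox, and at 4, 8 and 12 days off Dox. A further library came from viable cells sorted for high CD11b at day 12 of Dox. Each of the 8 groups held 1 library, so there was no spread between replicates and no test between conditions. What carries the PU.1 knockdown in this line was not named in the labels.

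The data of a library were its called peak summits, each with a score on a −log10 scale of significance. The lists held 31957 to 51175 summits with median scores of 9.4 to 12.6. Summits of the 8 lists, widened by 150 bp both ways, were merged into regions, and a region with a summit from a given library was called open there. "Not open" means no summit was called there, not that the chromatin was shown to be closed. A score depends on read depth, not given in the sources used here, so scores are values of their own library and the order of scores between libraries is not read as a change. A list percentile is the share of a library's own summits with a lower score. In such bulk libraries, fewer cells with an open site and a less open site per cell cannot be told apart.

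Chemokine receptors are membrane receptors coupled to inhibitory G proteins that steer leukocytes along gradients of small secreted chemokines. CCR2, the receptor for CCL2, brings monocytes out of the marrow and into inflamed tissue. CCR1 binds CCL3 and CCL5 on monocytes and neutrophils, and CCR3 is the eotaxin receptor of eosinophils. CX3CR1 binds fractalkine on monocytes and tissue macrophages, XCR1 marks cross-presenting dendritic cells, and CCRL2 is an atypical receptor that binds chemerin without driving migration. PU.1, encoded by Spi1, is the ETS-family factor that myeloid differentiation depends on, and it binds sequences built around the letters GGAA.

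The 250 bases before the start site are printed for 5 of the genes because they differ in whether a summit was called there. Those of Ccr1 (chr9:123968693-123968942, minus strand) held summits in 5 libraries and those of Cx3cr1 (chr9:120068297-120068546, minus strand) in 7. Those of Ccr1l1 (chr9:123986716-123986965, minus strand), Ccr3 (chr9:124021721-124021970, plus strand) and Ccr2 (chr9:124101933-124102182, plus strand) held none. The windows of Ccr3 and Ccr2 lie inside the gene spans used here, which begin at 124017825 and 124101918. For these 2 genes the span thus begins upstream of the start site used, and the bases before its beginning are not printed. The sequences are from RefSeq (GRCm38.p6, the build also called mm10), in which all 7 genes had an entry, and read 5′ to 3′ on the gene's strand. Capitals mark matches on either strand to letters that RUNX, GATA and AP-1 factors are known to bind.
Ccr1: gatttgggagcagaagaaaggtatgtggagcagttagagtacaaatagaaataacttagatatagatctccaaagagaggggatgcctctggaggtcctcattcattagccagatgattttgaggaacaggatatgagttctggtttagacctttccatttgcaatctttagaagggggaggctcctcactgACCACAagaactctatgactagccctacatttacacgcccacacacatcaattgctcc
Cx3cr1: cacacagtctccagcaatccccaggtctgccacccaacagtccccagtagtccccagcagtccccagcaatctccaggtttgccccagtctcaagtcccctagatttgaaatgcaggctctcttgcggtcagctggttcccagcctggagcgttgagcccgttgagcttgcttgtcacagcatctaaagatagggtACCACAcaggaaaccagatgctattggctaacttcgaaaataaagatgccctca
Ccr1l1: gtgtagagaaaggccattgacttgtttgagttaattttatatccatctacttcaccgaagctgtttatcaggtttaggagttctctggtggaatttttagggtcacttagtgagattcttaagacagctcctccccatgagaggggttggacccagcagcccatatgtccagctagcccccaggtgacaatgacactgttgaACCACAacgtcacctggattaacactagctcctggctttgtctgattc
Ccr3: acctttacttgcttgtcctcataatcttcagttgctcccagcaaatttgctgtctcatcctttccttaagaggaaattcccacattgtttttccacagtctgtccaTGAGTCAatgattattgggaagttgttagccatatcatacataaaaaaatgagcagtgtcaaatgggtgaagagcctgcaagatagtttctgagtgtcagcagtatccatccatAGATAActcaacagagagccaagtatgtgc
Ccr2: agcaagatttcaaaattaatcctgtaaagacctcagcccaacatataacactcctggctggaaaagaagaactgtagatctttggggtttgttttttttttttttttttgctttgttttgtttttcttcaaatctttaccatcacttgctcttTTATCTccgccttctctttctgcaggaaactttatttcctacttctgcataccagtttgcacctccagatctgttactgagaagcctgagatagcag

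The RUNX letters searched were TGTGGT. On the other strand, where they appear as ACCACA, they began 58 bases before the start site of Ccr1, 54 before that of Cx3cr1 and 48 before that of Ccr1l1. These letters were in 14% of the 32851 windows of the same length in the table. Ccr3 held the AP-1 letters TGANTCA 144 bases before its start. It also held the GATA letters AGATAA 30 bases before the start. Ccr2 held the GATA letters on the other strand, as TTATCT, 97 bases before its start. Over all windows, 6.75% held the AP-1 and 9.99% the GATA letters. The PU.1 letters GAGGAAGT, in 2.44% of windows, and the C/EBP letters TTGCNNCAA, in 1.74%, were in none of the windows of the 7 genes. The shorter ETS core GGAA, which is part of the PU.1 letters, occurred 2 times in Ccr1, 2 in Cx3cr1, 1 in Ccr1l1, 5 in Ccr3 and 3 in Ccr2. Of all windows, 93.4% held it, with a median of 3. A match describes the letters and is no binding site, and most of the open regions of these loci lay away from the printed windows, where no sequence was at hand.

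Over the 38 regions, calls were fewest at day 0 and at 12 days off and most numerous at day 8. Along the course the number open was 17 at day 0, 26 at day 4, 31 at day 8, 26 at day 12 and 24 in the CD11b-high sort. After withdrawal it was 24 at 4 days, 24 at 8 days and 18 at 12 days. List length differed as well, and over all regions the shares open were 51.5%, 50.1%, 66.8%, 49.6%, 51.1%, 72.7%, 59.0% and 45.3% in the same order. At the receptor loci the shares were 44.7%, 68.4%, 81.6%, 68.4%, 63.2%, 63.2%, 63.2% and 47.4%. They lay above the share of all regions at day 4, 8 and 12 and in CD11b-high cells. They also lay above it at 8 days off (63.2% against 59.0%) and 12 days off (47.4% against 45.3%). At day 0 and at 4 days off they lay below it. With every list cut to the length of the shortest, 14, 22, 24, 23, 22, 18, 19 and 18 regions of these loci were open. Among summits of score 10 or more the numbers were 10, 14, 19, 8, 10, 18, 12 and 8. Day 12 was then below day 0 and level with 12 days off, so the order of the libraries depended on the score asked for.

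**Figure D1:**
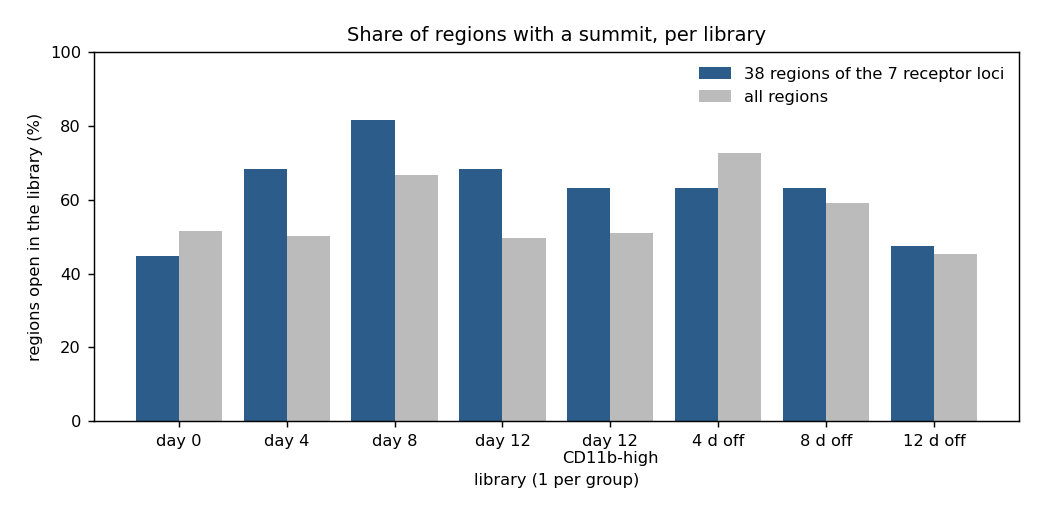
Bars show, for each of the 8 libraries, the percentage of regions with a summit, for the 38 regions of the receptor loci (blue) and for all 68800 regions (grey). The receptor loci stand at 44.7% at day 0 and 81.6% at day 8, and below all regions at 4 days off, at 63.2% against 72.7%.

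A gained region had no day-0 summit and a summit at each of day 4, 8 and 12, and a lost region had a summit at day 0 and at none of these later times. At the receptor loci 7 of 38 regions were gained, where 4.94% of all regions were, and 2 were lost, where 5.62% were. Ccr2 held 3 of the gained regions, Ccr1 held 2, and Ccr3 and Ccr1l1 held 1 each. Ccrl2, Cx3cr1 and Xcr1 had none. All 7 therefore lay in the cluster that runs from Xcr1 to Ccr2, and none of them had a day-0 summit within 1 kb. The count depended on the score asked for and on day 4: it was 5 with summits of score 5 or more, 4 (with 1 of them at Cx3cr1) with summits of score 10 or more, and 12 when the call at day 4 was not required. At 10 of the 38 a summit was called in all 8 libraries, where 27.2% of all regions had one, and 6 had a summit in a single library, with scores of 2.22 to 10.2, where 23.5% did.

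Time by time, 21 of the 38 were not open at day 0. Of these 21, 11 were open at day 4, where 22.8% of all regions not open at day 0 were, 17 at day 8, where 49.1% were, and 13 at day 12, where 28.5% were. In CD11b-high cells 11 were open, where 30.6% were. Of the 17 that were open at day 0, 2 were not open at day 4, where 24.1% were not, 3 at day 8, where 16.6% were not, and 4 at day 12, where 30.6% were not. In CD11b-high cells 4 were not open, where 29.6% were not. Openings were thus more numerous than closings at each of these times, with the gap widest at day 8, when the list was the longest of these. No region lay near the 100 kb limit, the farthest being 37853 bp from Ccr1.

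**Figure D2:**
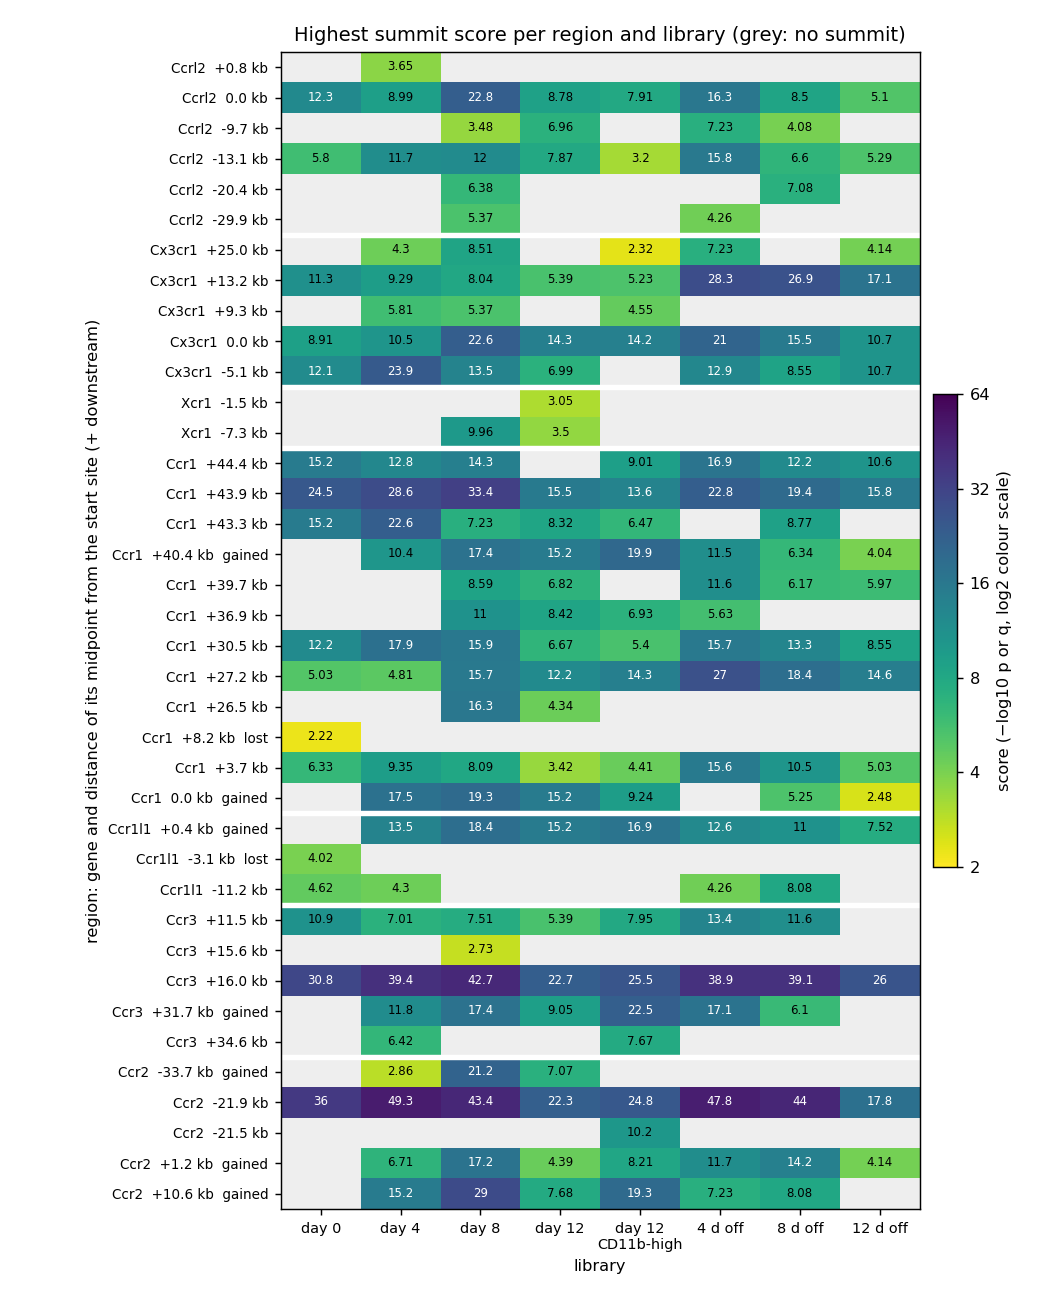
Each row is 1 of the 38 regions, named by gene and by the distance of its midpoint from the start site, and each column is a library. Numbers and colours give the highest summit score, and grey marks no summit. The 7 gained rows are grey at day 0 and filled at day 4, 8 and 12.

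At Ccr2 (chromosome 9, 124101918 to 124109140), 1 of 5 regions was open at day 0 and 4 were open at each later time on Dox. The region that was open throughout lay at 124080130 to 124080477, 21880 bp upstream of the start site. It scored 36.0 at day 0, 49.3 at day 4, 43.4 at day 8, 22.3 at day 12, 24.8 in CD11b-high cells, and 47.8, 44.0 and 17.8 at 4, 8 and 12 days off. Its scores stood above at least 70.6% of summits in every library.

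The region inside the gene, at 124103146 to 124103670 with its midpoint 1225 bp downstream of the start site, was not open at day 0. Its scores were 6.71 at day 4, 17.2 at day 8, 4.39 at day 12, 8.21 in CD11b-high cells, and 11.7, 14.2 and 4.14 at 4, 8 and 12 days off. It was thus open in the 7 later libraries, with day 8 and 8 days off at list percentiles of 64.9 and 57.4 and day 12 at 11.8. The summits fell into 2 groups of positions, at 1283 to 1337 bp from the start site at day 4, 8, 12 and 12 days off, and at 1113 to 1155 bp in the other 3 libraries. Some receptor genes of the cluster have closely similar coding sequences, and no source used here says how reads that fit more than 1 place were treated.

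The region 3657 bp beyond the gene's far end, at 124112583 to 124113012, was open from day 4 to 8 days off. Its scores were 15.2, 29.0 and 7.68 at day 4, 8 and 12, 19.3 in CD11b-high cells, and 7.23 and 8.08 at 4 and 8 days off. It was not open at 12 days off, when the nearest summit was 5847 bp away. The third gained region, 33664 bp upstream at 124068232 to 124068807, was open only at day 4, 8 and 12, with scores of 2.86, 21.2 and 7.07. Its day-4 score stood above 1.7% of that list, and its 3 summits were spread over 275 bp, so this call rested on a weak day-4 peak. A region at 124080544 to 124080844 was open only in CD11b-high cells, with a score of 10.2, while each other library had a summit 367 to 414 bp away in the neighbouring region. Ccr2 had 1 gained region with summits of score 5 or more and 0 with summits of score 10 or more, so its count rested on summits of low to middling score at day 4 or 12.

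At Ccr3 (124017825 to 124031692), all 5 regions lay between the gene and Ccr2, and none lay inside the gene. The nearest summit to the bases before its start site was 11512 bp away. The region at 124037790 to 124038104, 6255 bp beyond the gene, was open in all 8 libraries with scores of 30.8, 39.4, 42.7 and 22.7 at day 0, 4, 8 and 12. It scored 25.5 in CD11b-high cells and 38.9, 39.1 and 26.0 at 4, 8 and 12 days off. Its 8 summits lay within 14 bp of each other, the narrowest spread among the 10 regions that were open throughout.

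The gained region of Ccr3 lay 22025 bp beyond the gene at 124053550 to 124053885. Its scores were 11.8, 17.4 and 9.05 at day 4, 8 and 12, 22.5 in CD11b-high cells, and 17.1 and 6.1 at 4 and 8 days off. It was not open at day 0 or 12 days off, when the nearest summits were 15750 and 15746 bp away. Among summits of score 10 or more it was not gained, because its day-12 score was below that limit. A neighbour at 124056391 to 124056731 was open only at day 4, with 6.42, and in CD11b-high cells, with 7.67. The region nearest the gene, at 124033332 to 124033659, scored 5.39 to 13.4 in 7 libraries and was missing at 12 days off. Near 5 eosinophil genes, 4 of 13 regions were gained, 3 at Alox15 and 1 at Siglecf, and 0 lost, or 30.8% gained beside 4.94% of all regions. The numbers open there were 7, 9, 13, 10, 8, 12, 9 and 7 in the order of libraries above. Over all regions the shares open were 51.5%, 50.1%, 66.8%, 49.6%, 51.1%, 72.7%, 59.0% and 45.3% in the same order. The part of the eosinophil loci in the Ccr3 calls was not tested.

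**Figure D3:**
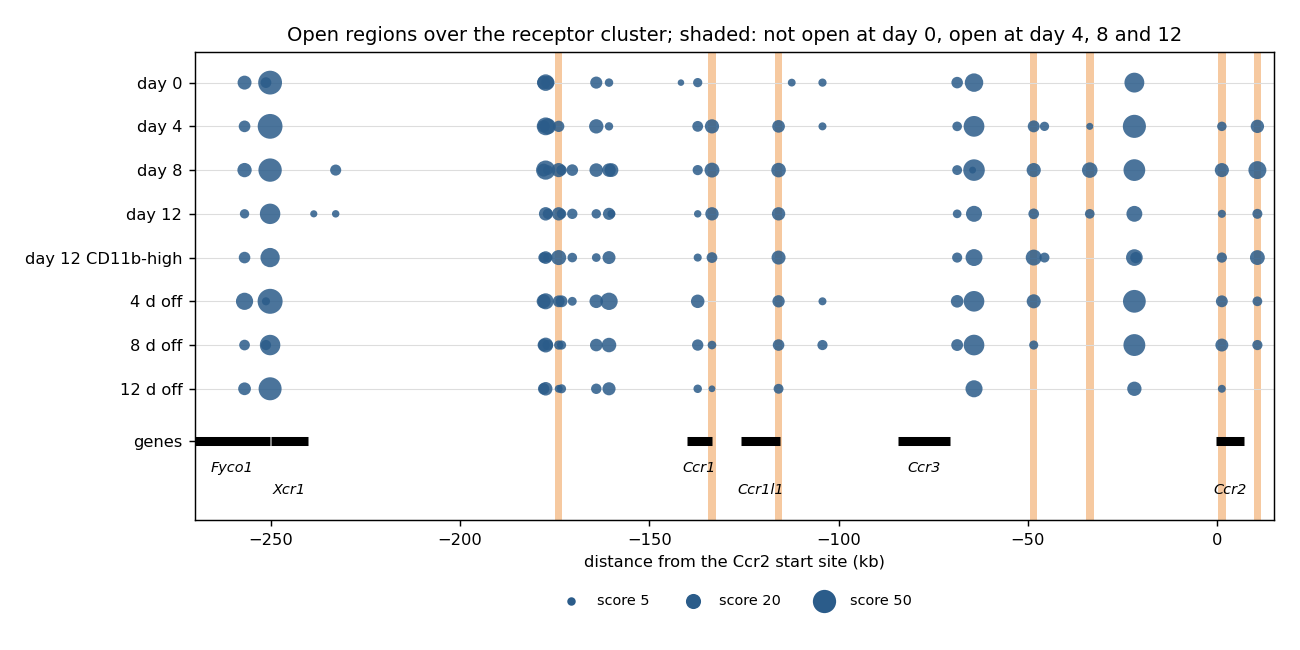
Open regions across the receptor cluster, with distance from the Ccr2 start site in kb on the horizontal axis and 1 row per library. Circle area grows with the summit score, black bars are gene spans, and shaded bands are the 7 gained regions.

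Ccr1 (123962126 to 123968692) had the most regions, 12, of which 2 were gained, 1 lost and 4 open in all 8 libraries. Its start site was among the sites not called at day 0. That region, at 123968537 to 123968927, overlaps the printed bases of Ccr1 and scored 17.5, 19.3 and 15.2 at day 4, 8 and 12 and 9.24 in CD11b-high cells. It was not open at 4 days off, when the nearest summit was 3673 bp away, and scored 5.25 and 2.48 at 8 and 12 days off. At 12 days off the call stood above only 0.911% of its list. The summits lay 11 and 3 bp before the start site at day 4 and 8 and 5 bp after it at day 12. In the later libraries they lay 50, 85 and 37 bp before it, on either side of the RUNX letters that begin 58 bases before the start.

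Ccr1l1 (123976430 to 123986715) encodes a receptor closely related to CCR1. Its gained region, inside the gene at 123986164 to 123986482, was open in the 7 libraries after day 0. It scored 13.5, 18.4 and 15.2 at day 4, 8 and 12, 16.9 in CD11b-high cells, and 12.6, 11.0 and 7.52 at 4, 8 and 12 days off. The summits were 383 to 401 bp downstream of the start site, within 18 bp of each other, and the nearest day-0 summit was 3471 bp away. This region was gained under every alternative tried. The other 2 regions of Ccr1l1 had scores of 4.02 to 8.08, and that at 123989653 to 123989953 was lost, with a single day-0 summit of 4.02.

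**Figure D4:**
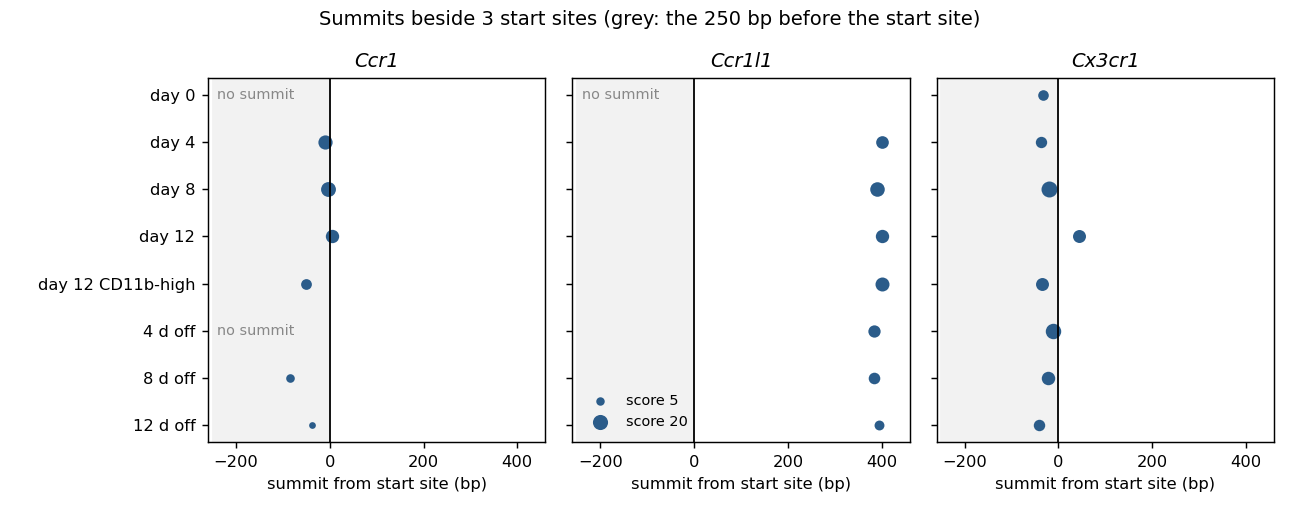
Position of the highest summit relative to the start site in bp, by library, for the Ccr1 region at its start site, the gained Ccr1l1 region and the Cx3cr1 region at its start site. Ccr1 lacks a summit at day 0 and 4 days off, Ccr1l1 at day 0, and Cx3cr1 in no library.

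A block of 9 Ccr1 regions lay 19941 to 37853 bp beyond the gene's far end, towards Xcr1. The non-coding gene Gm51701 (123925148 to 123928706) lies there, and 2 of the regions had their midpoint in it, so the link of the block to Ccr1 is by nearness among protein-coding genes only. The region at 123924540 to 123925071 was open throughout, scored 13.6 to 33.4 and had the highest score of the block in each library but the CD11b-high sort and 4 days off, and another open throughout at 123937999 to 123938345 scored 5.4 to 17.9. The gained one, at 123928050 to 123928440, scored 10.4, 17.4 and 15.2 at day 4, 8 and 12, 19.9 in CD11b-high cells, and 11.5, 6.34 and 4.04 at 4, 8 and 12 days off. Its list percentile was 8.09 at 12 days off and 77.8 in the CD11b-high sort.

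In this block 3 regions were first open at day 8. That at 123928700 to 123929308 scored 8.59 and 6.82 at day 8 and 12, was missing in CD11b-high cells, and scored 11.6, 6.17 and 5.97 at 4, 8 and 12 days off. That at 123931678 to 123931995 was open from day 8 to 4 days off with scores of 11.0, 8.42, 6.93 and 5.63. That at 123942023 to 123942347 was open at day 8, with 16.3, and at day 12, with 4.34, and all other libraries had a summit 586 to 685 bp from it. The region at 123925225 to 123925551 was open at day 0 and not at 12 days off. It scored 15.2, 22.6, 7.23 and 8.32 at day 0, 4, 8 and 12 and 6.47 in CD11b-high cells. At 8 days off it scored 8.77. It had no summit at 4 and 12 days off, when the nearest summits were 666 and 633 bp away. The lost region of Ccr1, at 123960390 to 123960690, rested on a day-0 summit that scored 2.22. The last region, inside the gene at 123964765 to 123965164, was open throughout with scores of 3.42 to 15.6. No region of the 7 loci was lost with summits of score 5 or more, or once the lists were cut to the length of the shortest. Among summits of score 10 or more, however, 3 regions were lost, 1 each at Ccr3, Ccrl2 and Cx3cr1. Their day-0 scores were 10.9, 12.3 and 11.3, and with all summits used these places were also open at day 4, 8 and 12. At Ccrl2 the day-0 summit, at 111056996, and a day-8 summit of score 22.8, at 111057534, lay in the same region when all summits were used.

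Cx3cr1 (120048683 to 120068296) lies 3784018 bp from Xcr1 on the same chromosome. It had 5 regions, 0 of them gained or lost and 2 open in all 8 libraries. The region over its start site, at 120068103 to 120068487, overlaps the printed bases and scored 8.91, 10.5, 22.6 and 14.3 at day 0, 4, 8 and 12. It scored 14.2 in CD11b-high cells and 21.0, 15.5 and 10.7 at 4, 8 and 12 days off. The non-coding gene Gm33858 (120063262 to 120071051) also holds the midpoint of this region, so the calls cannot be given to Cx3cr1 alone. A start site was thus called in every library at Cx3cr1 but not at day 0 at Ccr1.

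The other region of Cx3cr1 that was open throughout, inside the gene at 120054783 to 120055435, scored 11.3, 9.29, 8.04 and 5.39 at day 0, 4, 8 and 12 and 5.23 in CD11b-high cells. At 4, 8 and 12 days off it scored 28.3, 26.9 and 17.1. The summit lay 13165 bp downstream of the start site at day 0 and 13167 bp at all 3 times off, but at 13357, 13363 and 13259 bp at day 4, 8 and 12 and at 13011 bp in CD11b-high cells. Summits off Dox and at day 0 thus fell within 2 bp of each other, while those on Dox were spread over 352 bp. The remaining 3 regions were each missing in 1 or more libraries. The one at 120073184 to 120073519, 5055 bp upstream, scored 6.99 to 23.9 and was missing only in CD11b-high cells. The one at 120058793 to 120059128 was open at day 4 and 8 and in CD11b-high cells, with scores of 5.81, 5.37 and 4.55. The one at 120043109 to 120043574 scored 2.32 to 8.51 in 5 libraries. Both of these were open at day 4 and 8 and not at day 12, and they would count as gained without the day-12 library.

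Xcr1 (123852315 to 123862029) had 2 regions, both upstream and both open only on Dox. The one at 123869193 to 123869494 scored 9.96 at day 8 and 3.5 at day 12, with its 2 summits 1 bp apart. The one at 123863406 to 123863706 scored 3.05 at day 12 alone. Neither was open in CD11b-high cells. The strong region 296 bp from the other end of Xcr1, at 123851747 to 123852291, lay 120 bp from Fyco1 and was assigned to that gene. It was open in all 8 libraries, with scores of 33.8 to 58.0. Near the other dendritic genes that were looked up, Flt3, Zbtb46 and Itgax, 8, 8 and 2 regions were assigned and 1, at Itgax, was gained.

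Ccrl2 (111054834 to 111057518) had 6 regions, 0 of them gained or lost. A region of 943 bp over its 3 start sites, at 111056773 to 111057715, was open in all 8 libraries with scores of 12.3, 8.99, 22.8 and 8.78 at day 0, 4, 8 and 12 and 7.91 in CD11b-high cells. At 4, 8 and 12 days off it scored 16.3, 8.5 and 5.1. It held 12 summits, and the highest of each library were spread over 592 bp, so the libraries peaked at different places within it. A second region 13134 bp upstream, at 111070469 to 111070836, was also open throughout, with scores of 3.2 to 15.8 and summits within 67 bp. The region 9736 bp upstream, at 111067040 to 111067469, scored 3.48 at day 8 and 6.96 at day 12. After withdrawal it scored 7.23 at 4 days and 4.08 at 8 days, with no summit in the other libraries. The remaining 3 were open in 1 or 2 libraries with scores of 3.65 to 7.08.

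To compare the 10 regions open in all 8 libraries without the lists' lengths, each was ranked in each library among the same 18733 regions open in all 8. The 2 strongest, at Ccr3 and Ccr2, lay at percentiles of 60.1 to 79.1 and 52.8 to 82.6. A region of Ccr1 at 123941338 to 123941737 stood at 2.63 at day 0, 2.5 at day 4, 21.5 at day 8, 37.0 at day 12 and 43.1 in CD11b-high cells, and at 39.0, 32.6 and 43.0 at 4, 8 and 12 days off. It was among the lowest of these regions at day 0 and 4 and higher in the 6 later libraries, those off Dox included.

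The start site of Cx3cr1 stood at 11.9 at day 0, 45.7 at day 12 and 28.4 at 12 days off. The region inside Cx3cr1 stood at 19.4 at day 0, 5.5 in CD11b-high cells, 6.33 at day 12 and 50.7 at 12 days off, so the order of the 2 Cx3cr1 regions at day 12 was the reverse of that at 12 days off. From day 0 to day 12, 2 of the 10 moved up by at least 20 percentile points, where 15.7% of the 18733 did, and 0 moved down, where 16.5% did. From day 12 to 12 days off 1 of 10 moved up by that much, where 14.7% did, and 0 moved down, where 14.5% did. From day 0 to 12 days off 2 of 10 did, where 8.20% did, namely the Ccr1 region by 40.4 and the region inside Cx3cr1 by 31.4 points, and 0 moved down, where 7.91% did. The step of 20 points was set with the scores in view.

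**Figure D5:**
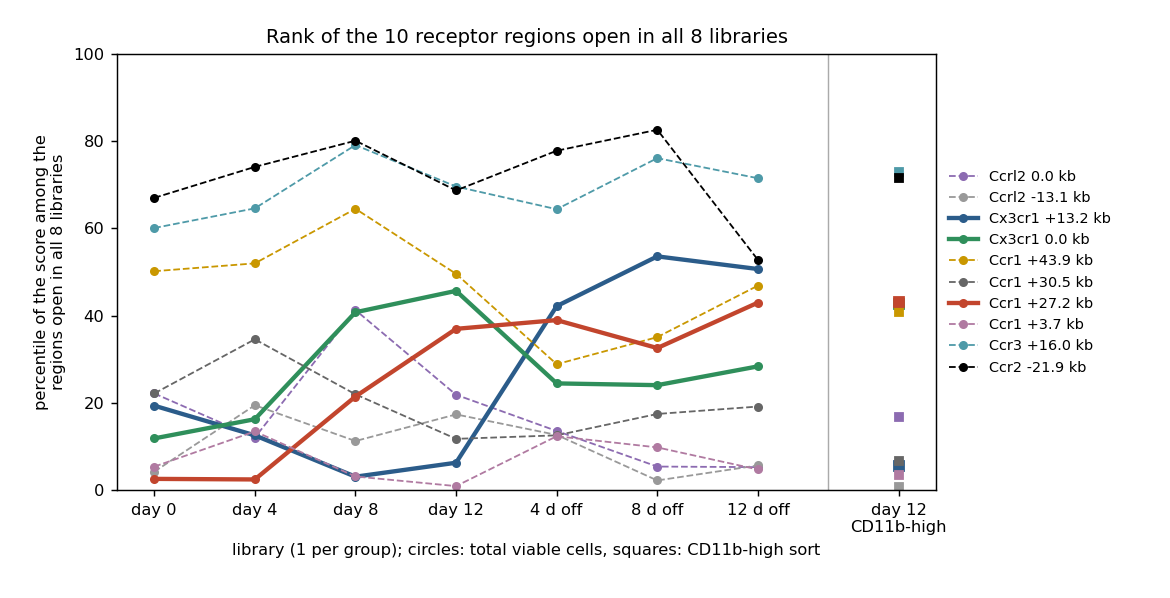
Percentile of each region's score among the 18733 regions open in all 8 libraries, by library, with distances from the start site in the key. The red Ccr1 line runs from 2.63 at day 0 to 43.0 at 12 days off, and the blue line inside Cx3cr1 from 6.33 at day 12 to 50.7 at 12 days off.

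Part of the gained receptor regions were still called after withdrawal. Of the 7, 5 were open at 4 days off, where 74.8% of all 3399 gained regions were, 6 at 8 days off, where 49.5% were, and 4 at 12 days off, where 26.2% were. The 4 at 12 days off were the Ccr1 start site, the Ccr1 region at 123928050, the Ccr1l1 region and the region inside Ccr2, with scores of 2.48 to 7.52. These were weak calls, and among summits of score 5 or more only 1 of 5 gained regions was open at 12 days off. At 8 days off 3 of 6 were open with every list cut to the length of the shortest, and 2 of 4 among summits of score 10 or more. The upstream region of Ccr2 was open at no time off, as were 21.6% of gained regions, and 3 were open at all 3 times, as were 21.4%. Neither of the 2 lost regions was open at 4, 8 or 12 days off, where 48.4%, 44.8% and 25.6% of all lost regions were.

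The calls at 12 days off differed from those at day 0 at some receptor regions. Of 23 regions open at day 0 or 12 days off, 6 were open only at 12 days off, where 12.0% were over all regions, and 5 only at day 0, where 22.5% were. The 6 comprised the 4 gained regions just named, the region of Ccr1 at 123928700 and that of Cx3cr1 at 120043109. Their scores at 12 days off were 2.48 to 7.52. The 5 comprised 2 of Ccr1, 2 of Ccr1l1 and 1 of Ccr3, with day-0 scores of 2.22 to 15.2. The strongest of these, at Ccr1, had a summit 633 bp away at 12 days off. Of the 13 regions open at day 12 but not day 0, 5 were open at 12 days off, where 18.7% of all such regions were, and of the 4 open at day 0 but not day 12, 1 was, where 42.7% were. The list of 12 days off was the shortest of the 8.

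In the CD11b-high sort, 6 of the 7 gained regions were open, where 84.0% of all gained regions were. The 1 missing was the upstream region of Ccr2. Of 31 regions open in either day-12 library, 19 were open in both, where 67.0% were over all regions, 7 only in total cells, where 15.3% were, and 5 only in CD11b-high cells, where 17.8% were. The 7 included both regions of Xcr1, 2 of Ccr1, and 1 each of Ccr2, Ccrl2 and Cx3cr1. The 5 included 2 of Cx3cr1 and 1 each of Ccr1, Ccr2 and Ccr3. At Xcr1 the day-12 calls were thus in total cells only, and at Ccr3 the extra call was in the CD11b-high sort. The calls found in 1 of the day-12 libraries scored 2.32 to 10.2 there.

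Over the window from 123752315 to 124227183, which takes in the whole cluster whatever gene a region was assigned to, 39 regions were found, of which 8 (20.5%) were gained and 4 (10.3%) lost, beside 4.94% and 5.62% of all regions. The gained regions of Ccr3 and of the far end of Ccr2 had the same states in all 8 libraries, open from day 4 to 8 days off and in CD11b-high cells. Of all gained regions 21.7% showed these states. The numbers open in the window were 20, 23, 29, 25, 25, 26, 26 and 17 in the order of libraries above. The widest stretches between Xcr1 and Ccr2 with no summit in any library were 54614 bp between Xcr1 and the Ccr1 block and 35187 bp over Ccr3 itself.

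Other genes of the chemokine system were looked up in lists chosen with earlier results of these data known. Of 77 regions at 21 other chemoattractant receptors, 5 were gained and 4 lost, and no gene had more than 1 gained region. C5ar1, the complement receptor, had 1 gained and 0 lost, and Ccr7 and Cmklr1, the chemerin receptor, had 1 of each. Of 61 regions at 24 ligand genes, 9 were gained and 6 lost. Cxcl12, the ligand of CXCR4, had 3 of each, the myeloid chemokine gene Ccl6 and Xcl1, which encodes the ligand of XCR1, had 2 gained and 0 lost each, and Ccl17 had 1 lost. Of 219 regions at 29 genes of signalling below the receptors, 19 were gained and 13 lost. The kinase gene Ptk2b had 3 gained and 2 lost, the Rac exchange factor gene Prex1 0 gained and 4 lost, the Rac regulator gene Elmo1 1 gained and 2 lost, and the Src-family kinase gene Lyn 2 gained and 1 lost. The shares gained were 6.49%, 14.8% and 8.68% for these 3 lists, beside 18.4% at the 7 receptor loci and 4.94% of all regions. The shares lost were 5.19%, 9.84% and 5.94%, beside 5.26% at the 7 receptor loci and 5.62% of all regions. The ligand list thus lay above all regions in both shares. Of the 21, 24 and 29 genes listed, 19, 17 and 28 had a region.

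As a check of the labelled cell type, the loci of marker genes were counted. The 8 myeloid progenitor genes held 48 regions, of which 6 were gained and 1 lost, and the 7 monocyte and macrophage genes 40, of which 3 were gained and 2 lost. The shares gained were 12.5% and 7.5% and the shares lost 2.08% and 5.0%, beside 4.94% and 5.62% of all regions. The monocyte and macrophage loci had 16, 20, 22, 21, 25, 29, 23 and 15 regions open in the order of libraries above. List length differed as well, and of all regions 51.5%, 50.1%, 66.8%, 49.6%, 51.1%, 72.7%, 59.0% and 45.3% were open. The part of the monocyte and macrophage loci in the Ccr2 calls was not tested. The 4 B cell genes held 9 regions, of which 0 were gained and 2 lost, the 4 T cell genes 4, with 0 gained and 0 lost, and the 4 erythroid genes 4, with 0 gained and 1 lost. The 4 mast cell and basophil genes held 6 regions, of which 0 were gained and 0 lost. No region was assigned to Elane of the myeloid progenitor list, Prg2 of the eosinophil list, Fcer1a of the mast cell and basophil list, or to Cd79a, Cd4, Cd8a, Gata1 and Hbb-bs. Accessibility does not measure RNA, so none of these counts says whether a receptor was expressed.

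The genes whose numbers of open regions ran most like the sum of the 7 receptor loci were looked for among 4592 genes with at least 5 regions. The measure was Pearson's r over the 8 libraries, of open regions per 10000 open regions of the library. Klhl18 and Myo1g were among the most alike, with r = 0.984 each and 3, 4, 5, 4, 4, 4, 4 and 3 open regions in the order of libraries above. Btbd7 and Klf2 had r = 0.954. The receptor loci had 4.8, 7.54, 6.75, 7.62, 6.83, 4.8, 5.91 and 5.77 per 10000. All points share the same 8 lists, and with 5 regions per gene many genes take few values, so this is a description only.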

How the data were processed

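The 8 ATAC-seq libraries of AML246 cells were analysed from the deposited summit lists, 1 per group, with 1-base summits. The tools named per the submitters' processing notes are MACS2, without a version, and Picard 2.14.0, with build mm10. No source used here names the aligner. The deposited score is taken to be −log10 of a peak's p or q, since the lowest scores of the lists, 1.3 to 1.39, are near a p or q of 0.05. It is the authors' own value per peak, not normalized between libraries. The labels' extraction text also mentions ChIP, but title and library kit name ATAC-seq. Peak names mention removal of mitochondrial reads and shifted reads.

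Summits of the autosomes (1 to 19), X and Y, widened by 150 bp, were merged and each region was assigned by midpoint to the nearest of 21887 protein-coding gene spans of a RefSeq table (GRCm38.p6), the shorter span in a tie. The table gives no exons, introns or untranslated regions, and strand came from the promoter table. The 85 to 121 summits per list on other contigs were not used. Merging, calls and assignment were tested on simulated lists, in Python 3.11.15 with pandas 2.3.3.

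No test was run, because each group had 1 library. Read depth is unknown and no interval is given. The members, lists and tests were chosen with earlier results of these data known. Named were all member regions, flanking genes on the map, up to 4 genes per list with most gained plus lost regions, and genes among the 5 most alike. Results that need certain withheld items are not reported here. Percentile ranks among regions open in all 8 libraries, and the calls without single time points, were added after seeing the data. The motif search covered 250 bases before each start site.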

Additional observations from a re-analysis of the deposited data

How the results depend on the processing

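With regions redrawn under the alternatives of score, list length and summit extension, 26 to 43 regions belonged to the 7 loci. The number was 38 with genes within 50 kb and 22 when the nearest of all genes, non-coding ones included, was taken. With the nearest of all genes 9, 17, 15, 13, 15, 12, 12 and 9 regions were open at day 0, 4, 8, 12, in CD11b-high cells and at 4, 8 and 12 days off. At a score of at least 10 the numbers were 10, 14, 19, 8, 10, 18, 12 and 8, and in the window of the cluster 11, 14, 19, 8, 13, 19, 13 and 9. Gained regions numbered 4 at a score of at least 10 and 12 without the day-4 library, and 5 to 9 under the other alternatives. Of these, 3, 2 and 1 were open at 4, 8 and 12 days off at a score of at least 10, 1 was open at 12 days off at a score of at least 5, and 3 were open at 8 days off with lists of equal length. Lost regions numbered 0 at a score of at least 5 and with lists of equal length, and 2 or 3 otherwise. The cause of these moves was not tested. No paired analysis was possible because each group held 1 library, and for the same reason no replicate could be left out. The unknown read depth limits what a missing call can show.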

Other observations

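Values of 3 regions assigned to neighbouring genes are given here. Ltf, which encodes the granule protein lactoferrin, had 1 region, 8435 bp from Ccrl2 at 111046183 to 111046616, that was not open at day 0 and open in the 7 later libraries. It scored 18.4, 38.6 and 25.6 at day 4, 8 and 12, 14.1 in CD11b-high cells, and 49.5, 30.5 and 8.95 at 4, 8 and 12 days off. Ccr8, upstream of Cx3cr1, had 3 regions and 0 gained.

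At the Xcr1 end of the cluster 2 regions were open before and after Dox but not on it. A region of Ccr9, a receptor of gut-homing lymphocytes, at 123756786 to 123757164 scored 5.18 at day 0, was open in no library on Dox, and scored 13.7, 19.2 and 12.5 at 4, 8 and 12 days off. A region inside Fyco1 at 123850759 to 123851095, 1388 bp from Xcr1, scored 9.31 at day 0, was open in no library on Dox, and scored 4.45 and 8.2 at 4 and 8 days off. Cxcr6, which lies within Fyco1, had no region of its own.

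The exact states over the 8 libraries differed in how common they were. The states of the Ccr1 start site, open at all times but day 0 and 4 days off, were shared by 26 of all 68800 regions, or 0.765% of gained regions. The states of the upstream region of Ccr2, open at day 4, 8 and 12 alone, were shared by 149, or 4.38% of gained regions. Open in all libraries but day 0 were 645 regions, among them 1 each of Ccr1, Ccr1l1 and Ccr2. These are counts over all regions, given as values.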
